A study of Mus musculus with 4 samples.

Results

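The ubiquitin-conjugating enzyme genes were followed through mouse testis development. The members were all entries whose symbol begins with UBE2 followed by a letter and any further letters or digits, and 39 of the 112302 entries in the deposited tables fit that rule. RNA from BALB/C testis was sequenced in 4 libraries, 1 per stage: fetal testis of day 14 (E14) and day 18 (E18) of gestation, and testis of mice aged 3 weeks and 6 months. No genetic change or treatment is named for any of them. The RNA was bought from a supplier, and the number of animals behind each library is not given in the sources used here. Levels are RPKM, reads per kilobase of gene model scaled to each library's read total. Comparing members of different length rests on the gene models that were used. With 1 library per stage no test between stages was possible, and a difference describes the libraries. Of the 39 members, 37 are annotated as protein coding and 2, Ube2nl and Ube2d4, as processed pseudogenes. Ube2cbp carries the family name but encodes a ligase.

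Attachment of ubiquitin runs through a relay in which an activating enzyme loads ubiquitin, a conjugating enzyme carries it on a cysteine, and a ligase brings the carrier to the substrate. The conjugating enzyme often sets the kind of chain that is built, and a few members carry relatives of ubiquitin (NEDD8, ISG15) in its place. The pathway is known for its work in spermatogenesis: histones are ubiquitylated in spermatocytes and spermatids and are then largely replaced by protamines. Male mice that lack Ube2b, a homologue of yeast Rad6, are infertile.

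The libraries carried between 33952471 reads (3 weeks) and 38903334 reads (E14) behind the RPKM values, and 3 reads in a gene model of 1 kb corresponded to 0.0771 to 0.0884 RPKM. Spermatocyte markers summed to 2.16 RPKM at E14, 6.66 at E18, 620 at 3 weeks, then 392 at 6 months, with 0, 2, 9 and 9 of the 9 genes at 1 RPKM or more. Elongating spermatid markers summed to 2.85, 3.71, 25.7 and 6639 RPKM, with 1, 1, 5 and 8 of 8 genes at that level. Germ cells of meiosis and after it were thus represented in the postnatal libraries by these markers. The 8 Sertoli cell markers summed to 7.32 RPKM at E14, where 2 of them reached 1 RPKM and Rhox8 was listed at 0, against 95.7, 117 and 121 in the later libraries, so their sum was low at E14. Sox9, one of them, went the other way, at 4.002 RPKM at E14 and 1.49 to 3.08 later. Leydig cell markers summed to 8.12 RPKM at E14 and 138 at E18. The same E14 library held 67.6 RPKM of cartilage markers (0.489 at E18) and 52.2 of neuronal markers (7.94 at E18). It also held 313 RPKM of liver markers (70.2 at E18) and 285 of skeletal muscle markers (90.2 at E18). Kidney tubule markers summed to 24.9 RPKM at E18 and to between 0.273 and 1.39 elsewhere, and epididymis markers to 66.5 RPKM at 3 weeks and to between 0.0322 and 1.87 elsewhere. In RNA from whole tissue, fewer cells of a type and less RNA per cell cannot be told apart.

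Most of the family was present at every stage, and a small group of members appeared after birth. In all 4 libraries 26 of the 39 members reached 1 RPKM, and 36 did so in at least 1 library and were counted as measured. By the same rule 42964 of all 112302 entries and 12661 of 20462 protein-coding symbols were measured. How many entries reached 1 RPKM in all 4 libraries was not counted. The 3 members below that level everywhere were Ube2cbp (0.376 to 0.651 RPKM), Ube2d4 (0.0721 to 0.727 RPKM) and Ube2j2 (0.330 to 0.752 RPKM). Summed over the 39 members, the level was 149.7 RPKM at E14, 153 at E18, 399 at 3 weeks, then 417 at 6 months. The median member changed less, at 2.41, 2.73, 3.82 and 3.78 RPKM. Ube2d2b, Ube2s, Ube2j1 and Ube2u, chosen after their values were seen, made up 19.6% of the summed RPKM at E14 and 18.4% at E18, but 52.7% at 3 weeks, then 60.1% at 6 months. Without them the sum was 120.3, 125, 188 and 166 RPKM.

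**Figure D1:**
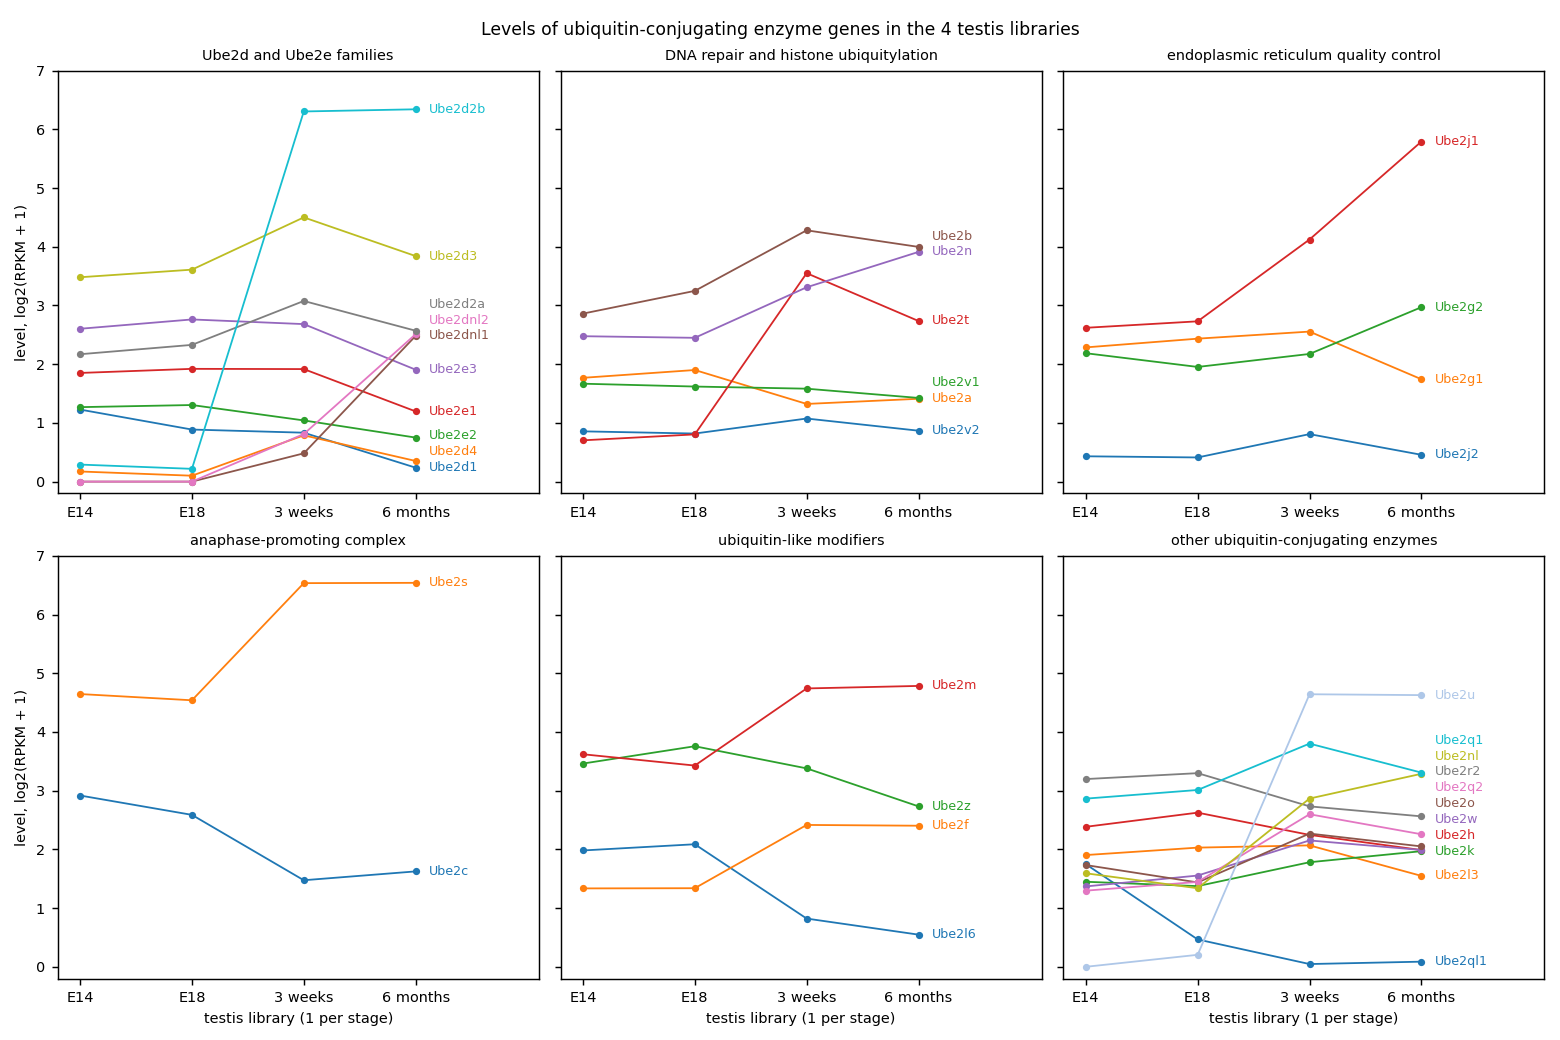
Levels of the members as log2(RPKM + 1) in the 4 testis libraries, 1 line per gene and 1 panel per role (Ube2cbp and 1 other member are not drawn). Ube2d2b and Ube2u lie near 0 in the fetal libraries and high in both postnatal ones, while Ube2dnl1, Ube2dnl2 and Ube2j1 have their highest level at 6 months.

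The Ube2d enzymes, broadly acting carriers that work with many ligases, showed the widest divergence among near relatives. Ube2d2b, an intronless gene at chr5:107830099-107831776 (plus strand, GRCm38), stood at 0.223 RPKM at E14, 0.163 at E18, 78.0 at 3 weeks, then 80.1 at 6 months. These levels rest on 14, 9, 4282 and 4634 reads. The postnatal libraries were high and the fetal libraries close to the detection floor, with a level at 3 weeks 480-fold that at E18 (95% counting interval 252 to 1050). The multi-exon relatives changed far less. Ube2d3 stood at 10.2, 11.2, 21.6 and 13.3 RPKM in order of age, and Ube2d2a at 3.50, 4.02, 7.44 and 4.94. Both had their highest value at 3 weeks, within 2-fold of E18 on the scale used below. Ube2d1 had a lower value at each later stage as deposited, at 1.34, 0.849, 0.782 and 0.179 RPKM. The interval of its ratio from E18 to 3 weeks included 1 (0.710 to 1.19). Rescaling by ribosomal protein genes gave it a higher value at 3 weeks than at E18. Of the summed RPKM of the 7 Ube2d entries, Ube2d2b held 1.45% at E14, 0.997% at E18, 71.1% at 3 weeks, then 74.1% at 6 months.

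**Figure D2:**
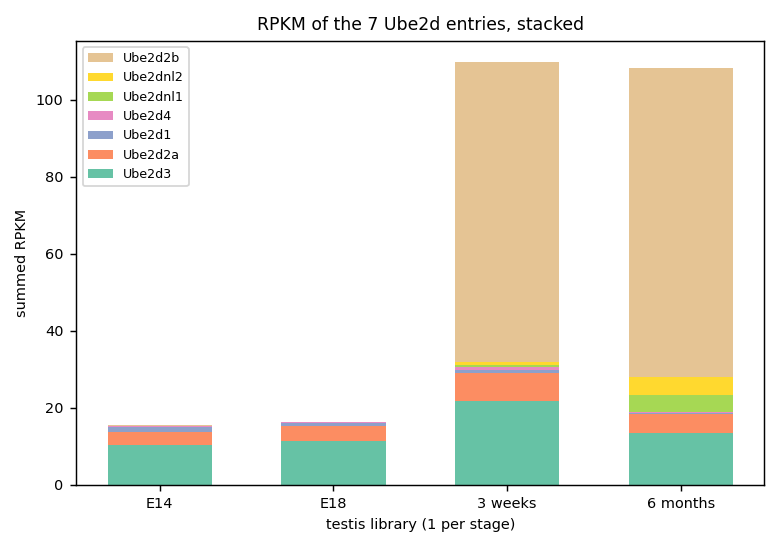
Stacked bars of RPKM for the 7 Ube2d entries in each testis library, 1 library per stage. Ube2d3 forms most of the bar at E14 and E18, and Ube2d2b holds 71.1% of it at 3 weeks, then 74.1% at 6 months.

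A pair of X-linked Ube2d relatives came later. Ube2dnl1 (chrX:114905012-114905941) and Ube2dnl2 (chrX:114907582-114908510), neighbours on the plus strand, had 0 reads at E14 and at E18, 10 and 19 reads at 3 weeks, and 122 and 125 reads at 6 months. As RPKM, Ube2dnl1 stood at 0, 0, 0.396 and 4.59 and Ube2dnl2 at 0, 0, 0.753 and 4.70. Both were thus highest in the adult library, where Ube2dnl1 was 11.6-fold its level at 3 weeks (interval 6.08 to 24.7) and Ube2dnl2 was 6.24-fold (3.83 to 10.7). The adult level was 38.9-fold the level of 3 reads at E18 for Ube2dnl1 and 39.8-fold for Ube2dnl2. With counting error in both libraries, the lower 95% bounds of the ratio of 6 months to E18 were 31.1 and 31.9. Of the 50-base stretches of either annotated transcript, 11.7% also occur in the other, so a part of their reads could be shared.

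Ube2u, a conjugating enzyme gene at chr4:100478849-100550147 (plus strand), followed the same course as Ube2d2b. It stood at 0 RPKM at E14 (0 reads), 0.152 at E18 (8 reads), 24.0 at 3 weeks (1251 reads), then 23.7 at 6 months (1305 reads). The level at 3 weeks was 158-fold that at E18 (interval 79.8 to 366), and the ratio of 6 months to 3 weeks was 0.989 (0.915 to 1.07). Ube2t, which monoubiquitylates the Fanconi anaemia proteins during DNA crosslink repair (chr1:134962565-134974162, plus strand), was also a postnatal gene but with a fetal level above the floor. Its RPKM was 0.628 at E14, 0.746 at E18, 10.7 at 3 weeks, then 5.66 at 6 months, with the highest value at 3 weeks. Ube2j1, an enzyme anchored in the endoplasmic reticulum membrane that serves the disposal of misfolded proteins (chr4:33031416-33052363, plus strand), was higher at each postnatal step. It stood at 5.15 and 5.63 RPKM in the fetal libraries, 16.4 at 3 weeks, then 54.4 at 6 months, which made it the third most abundant member in the adult library.

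The stretch before the start of these 6 genes is shown because the genes had large differences between fetal and postnatal libraries. They are not all of the largest: Ube2s, not shown, was 4.12-fold its E18 level at 3 weeks, against 2.92-fold for Ube2j1. The sequences come from RefSeq on GRCm38.p6, which lists 41 promoters for 30 of the 39 members. Capitals mark matches to 5 searched motifs or their reverse complements: the CCAAT box, the TGACGTCA cyclic AMP response element, TTTGAA of the cell cycle homology region, the TATAAA box and GTTGCC, one arm of the RFX site. Each window is the 250 bases before the RefSeq start, and the printed letters stop where the GENCODE gene begins, which leaves 187 bases for Ube2d2b and 232 for Ube2u.
Ube2d2b, chr5:107829912-107830098, plus strand: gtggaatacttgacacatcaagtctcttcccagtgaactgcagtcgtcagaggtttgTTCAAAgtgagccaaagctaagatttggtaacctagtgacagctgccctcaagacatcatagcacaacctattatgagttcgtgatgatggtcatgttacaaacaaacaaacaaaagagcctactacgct
Ube2u, chr4:100478617-100478848, plus strand: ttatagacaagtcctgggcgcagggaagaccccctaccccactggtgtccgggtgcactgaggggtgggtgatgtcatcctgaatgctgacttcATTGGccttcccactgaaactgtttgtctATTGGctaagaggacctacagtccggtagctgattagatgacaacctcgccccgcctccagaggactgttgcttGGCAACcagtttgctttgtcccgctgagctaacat
Ube2t, chr1:134962315-134962564, plus strand: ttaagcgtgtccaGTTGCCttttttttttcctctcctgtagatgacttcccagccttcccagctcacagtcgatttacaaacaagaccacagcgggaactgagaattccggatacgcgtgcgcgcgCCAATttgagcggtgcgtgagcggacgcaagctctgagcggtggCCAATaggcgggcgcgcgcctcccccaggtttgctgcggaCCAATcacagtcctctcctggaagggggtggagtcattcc
Ube2j1, chr4:33031130-33031379, plus strand: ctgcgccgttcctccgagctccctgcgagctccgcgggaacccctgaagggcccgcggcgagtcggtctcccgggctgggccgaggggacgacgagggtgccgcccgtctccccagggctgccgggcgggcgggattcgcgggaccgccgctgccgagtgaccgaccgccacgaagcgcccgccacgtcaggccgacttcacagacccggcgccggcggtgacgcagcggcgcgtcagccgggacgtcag
Ube2dnl1, chrX:114904762-114905011, plus strand: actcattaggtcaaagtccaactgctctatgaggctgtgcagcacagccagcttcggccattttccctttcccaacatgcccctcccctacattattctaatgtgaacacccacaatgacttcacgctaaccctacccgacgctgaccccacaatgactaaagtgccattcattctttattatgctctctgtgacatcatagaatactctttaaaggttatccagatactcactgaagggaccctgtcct
Ube2dnl2, chrX:114907332-114907581, plus strand: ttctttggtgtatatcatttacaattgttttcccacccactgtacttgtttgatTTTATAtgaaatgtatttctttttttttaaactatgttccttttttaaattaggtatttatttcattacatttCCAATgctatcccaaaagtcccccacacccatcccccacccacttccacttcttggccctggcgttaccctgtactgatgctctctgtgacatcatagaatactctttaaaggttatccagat

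The 6 windows of 250 bases differed in base composition. CpG dinucleotides numbered 41 upstream of Ube2j1, 19 upstream of Ube2t, 7 upstream of Ube2d2b, 6 upstream of Ube2u, 4 upstream of Ube2dnl1 and 1 upstream of Ube2dnl2, against a median of 23 over the members' promoters and of 6 over all 32851 promoters listed. The windows of Ube2d2b, Ube2u, Ube2dnl1 and Ube2dnl2 thus lay below the family's median and near or below that of all promoters. These genes were among 6 members with fewer than 15 CpG in every listed promoter. The others were Ube2l3 (9), not past the limit used below in any comparison, and Ube2l6 (11), which was lower after birth. Few CpG was thus not particular to members that were higher after birth. Ube2t held 3 CCAAT boxes, whose first bases lie 124, 80 and 40 bases before the start, and Ube2u held 2, at 156 and 127. Among members not printed, Ube2c, which had lower RPKM after birth, held 6, and 1 promoter of Ube2f held 3. CCAAT occurred in 33.8% of all promoters and in 9 of the members' 41. GTTGCC, found in 10.4% of all promoters and 9 of the members' 41, lay 53 bases before the start of Ube2u and 237 before that of Ube2t. TGACGTCA (1.55% of all promoters) was matched in 1 member promoter, that of Ube2h, TTTGAA (15.99%) in 4, Ube2d2b among them, and TATAAA (12.4%) in 4, Ube2dnl2 among them. The CCAAT of Ube2d2b starts 62 bases before the RefSeq start, beyond the printed letters. None of the capitalised matches overlapped another. The neighbours Ube2dnl1 and Ube2dnl2 shared an identical run of at least 46 bases. Within the windows it ends 23 bases before the start of Ube2dnl1 and at the window edge of Ube2dnl2, where the search stopped: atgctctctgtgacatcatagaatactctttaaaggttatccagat.

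Stages were compared by subtracting the earlier library's log2(RPKM + 1) from the later one's. Members past a limit of 1 in either direction, which is 2-fold on this scale, are given as higher or lower. The scale understates the change of low genes. From E14 to E18 the family was nearly level. Of 36 measured members, 0 were higher and 1 was lower, beside 2.17% higher and 1.34% lower over all 42964 measured entries (3.54% and 1.63% over protein-coding symbols), and the median difference was 0.06 for members and 0.03 for all entries. The member that was lower was Ube2ql1, a distant relative of the Ube2q genes, at 2.36 RPKM at E14, 0.381 at E18, 0.0329 at 3 weeks, then 0.0625 at 6 months. Its level was highest at E14 and rested on 3 and 6 reads after birth. The summed level of 5 neuronal markers was higher in the same library (52.2 RPKM against 7.94 at E18, with 4 and 2 of them at 1 RPKM or more). So were the sums for cartilage (67.6 against 0.489), liver (313 against 70.2) and skeletal muscle (285 against 90.2), among others. Other sums were lower there, such as that of kidney tubule (1.39 against 24.9). The part of any of these cells in the result was not tested. Ube2ql1 was measured through E14 alone, so that leaving this library out of the filter left 0 members lower.

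Between E18 and 3 weeks the family split, with more members higher than lower. Of 36 measured members 10 were higher and 2 lower, beside 32.0% higher and 10.5% lower over all entries, and 24.1% and 13.2% over protein-coding symbols. The count of higher members was thus near the background. The median difference was 0.44 for members, 0.46 for all entries and 0.23 for protein-coding symbols. Ube2d2b (log2 difference 6.09), Ube2u (4.44) and Ube2t (2.75) led, followed by Ube2s (1.995), Ube2nl (1.53), Ube2j1 (1.39), Ube2m (1.31), Ube2q2 (1.15), Ube2f (1.08) and Ube2b (1.03). Lower were Ube2l6 (-1.27) and Ube2c (-1.11). The counting interval of the ratio excluded 1 for each of these 12. Ube2d2b, Ube2u and Ube2t reached 1 RPKM in the postnatal libraries alone and were measured through them. Rescaling moved the split: 6 members were higher and 2 lower by the median of ratios, 6 and 2 over protein-coding genes, and 20 and 0 over ribosomal protein genes. All entries shifted too, to 25.7% higher and 13.1% lower, 26.8% and 15.3%, then 49.1% and 2.93% under these scalings. Ube2b, Ube2f, Ube2m and Ube2q2 lost their call under the first 2 of these scalings, and Ube2c and Ube2l6 under the third. In the same comparison the spermatocyte markers stood at 6.66 and 620 RPKM, and the part of cell composition was not tested.

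**Figure D3:**
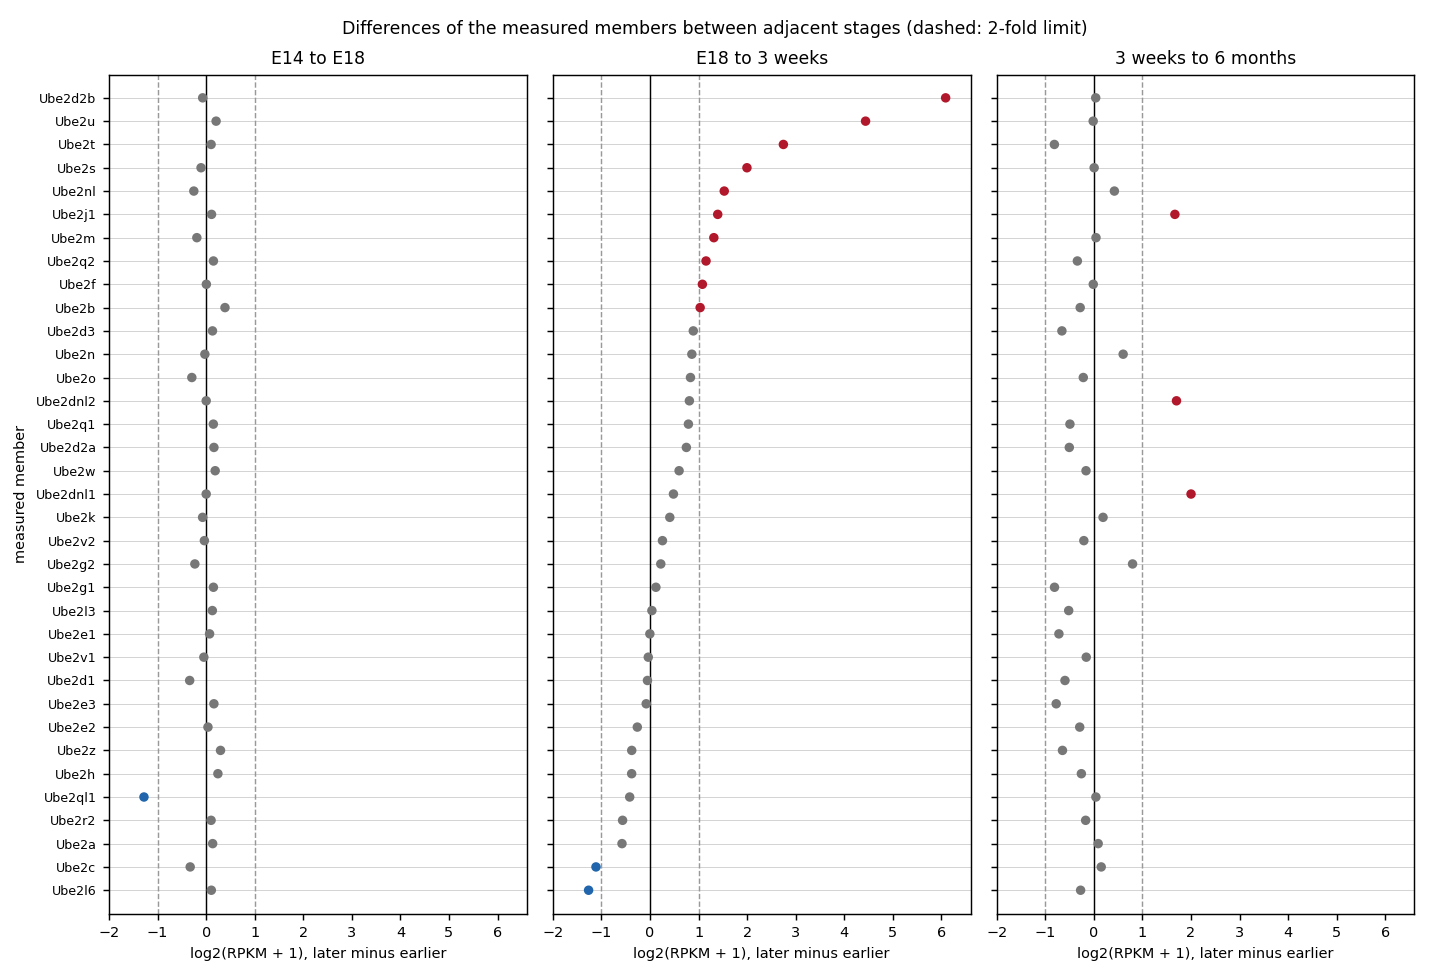
Difference in log2(RPKM + 1), later minus earlier library, for 35 of the 36 measured members in the 3 adjacent comparisons, with red points higher and blue points lower past the dashed 2-fold limits. The middle panel shows 10 members to the right of the limit and 2 to the left, while the outer panels have 1 and 3 members past a limit.

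From 3 weeks to 6 months 3 members were higher and 0 lower, beside 9.73% higher and 14.1% lower over all entries (9.54% and 7.87% over protein-coding symbols). They were Ube2dnl1 (log2 difference 2.00), Ube2dnl2 (1.70) and Ube2j1 (1.67). Ube2dnl1 and Ube2dnl2 reached 1 RPKM in the adult library alone, so they were measured through the library in which they were high. Most other members had somewhat lower values at 6 months: in 20 of the 33 that did not pass the limit the counting interval of the ratio lay below 1, and in 3 it lay above 1. Such intervals were not counted over all entries. The median difference was -0.19 for members, -0.31 for all entries and -0.22 for protein-coding symbols. The members' median was thus not below that of the background, and by the median of ratios it was 0.34. Ube2d1, Ube2e1 and Ube2g1 were lower past 2-fold with a pseudocount of 0.1 in place of 1. The summed level of elongating spermatid markers was 25.7 RPKM at 3 weeks, then 6639 at 6 months, and their part in the higher members was not tested.

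The adult library was also set against E18, a comparison that shares a library with each of the previous 2. Of 36 measured members 12 were higher and 2 lower, beside 32.9% and 15.4% over all entries (24.9% and 19.0% over protein-coding symbols). Against the list at 3 weeks, Ube2dnl1, Ube2dnl2, Ube2g2 and Ube2n were also higher, whereas Ube2b and Ube2q2 were not past the limit. Lower were Ube2l6 (log2 difference -1.54) and Ube2z (-1.02). The split was 8 higher and 8 lower when libraries were rescaled over protein-coding genes and 21 and 0 over ribosomal protein genes. Over all entries these scalings gave 26.8% higher and 24.5% lower, then 48.9% and 4.18%. Ube2f, Ube2g2, Ube2m and Ube2n lost their call over protein-coding genes, and Ube2c, Ube2e1, Ube2e3, Ube2g1, Ube2h and Ube2r2 became lower past the limit. Over ribosomal protein genes the difference of Ube2z was 0.15. By the median of ratios that of Ube2z was -0.71, within the limit.

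Among the enzymes of DNA repair and histone ubiquitylation, the Rad6 homologues Ube2a and Ube2b differed in course. Ube2b (chr11:51985497-52000762, minus strand) stood at 6.27 RPKM at E14, 8.504 at E18, 18.4 at 3 weeks, then 14.98 at 6 months. Ube2a (chrX:36873900-36884222, plus strand), its X-linked paralogue, stood at 2.41, 2.73, 1.502 and 1.66. Both postnatal values of Ube2b lay above its fetal values, and both postnatal values of Ube2a lay below, which held for Ube2a as deposited but not over ribosomal protein genes (log2 difference 0.13 from E18 to 3 weeks). The level of Ube2b over that of Ube2a was 2.61 at E14 (interval 2.18 to 3.13), 3.11 at E18 (2.61 to 3.72), 12.3 at 3 weeks (9.86 to 15.5) and 9.03 at 6 months (7.36 to 11.2). No 50-base stretch of either annotated transcript set occurred at another annotated locus. The log2 difference of Ube2b from E18 to 3 weeks was 0.72 by the median of ratios and 0.67 over protein-coding genes, below the limit, while the ratio of the 2 genes does not depend on scaling.

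Ube2n builds non-degradative ubiquitin chains together with the catalytically inactive partners Ube2v1 and Ube2v2. Ube2n stood at 4.57 RPKM at E14, 4.46 at E18, 8.92 at 3 weeks, then 14.1 at 6 months, and Ube2v2 at 0.810, 0.764, 1.11 and 0.824. The level of Ube2n over Ube2v2 was thus 5.64 at E14 (interval 4.54 to 7.07) and 17.1 at 6 months (13.8 to 21.4). Ube2v1 stayed between 1.69 and 2.18 RPKM. The Ube2v1 value is uncertain, since 62.4% of its 50-base stretches also lie in overlapping annotated genes. Ube2nl, a processed copy of Ube2n, followed it at 2.02, 1.53, 6.29 and 8.76 RPKM, and 28.7% of its stretches occur in Ube2n, so its reads may in part be those of Ube2n.

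The 2 members that serve the anaphase-promoting complex, the ligase that ends mitosis, separated after birth. Ube2c, which starts ubiquitin chains on its substrates, stood at 6.55 RPKM at E14, 5.01 at E18, 1.78 at 3 weeks, then 2.08 at 6 months. Ube2s, which extends those chains, was the most abundant member in every library, at 24.0, 22.3, 91.7 and 92.04 RPKM. Fetal and postnatal values thus did not overlap for either gene, with Ube2s high and Ube2c low after birth in RPKM as deposited. The level of Ube2s over Ube2c was 4.44 at E18 (interval 3.95 to 5.003) and 51.6 at 3 weeks (43.9 to 60.9). Under ribosomal protein scaling the difference of Ube2c was -0.32 at 3 weeks, then 0.04 at 6 months, both against E18. Dividing cell markers summed to 61.6, 54.4, 106 and 103 RPKM, with Ccna2 at 11.7 at E18 and 3.44 at 3 weeks and Ccnb2 at 10.4 and 34.9. The Ube2c gene overlaps Tnnc2, a fast skeletal muscle troponin, on the opposite strand, with 14.1% of its 50-base stretches in overlapping genes. Skeletal muscle markers summed to 285 RPKM at E14, 90.2 at E18, 1.04 at 3 weeks, then 1.30 at 6 months, and their part in the Ube2c values was not tested. The Ube2s gene model overlaps Rpl28 on the opposite strand in the annotation, with 2.65% of its 50-base stretches in overlapping genes. Of the 16 subunits and activators of the complex, 2 were higher at 3 weeks and 0 lower, beside 32.0% and 10.5% of all entries. They were the subunits Cdc27 (6.08 and 15.6 RPKM) and Anapc10 (1.16 and 4.44).

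**Figure D4:**
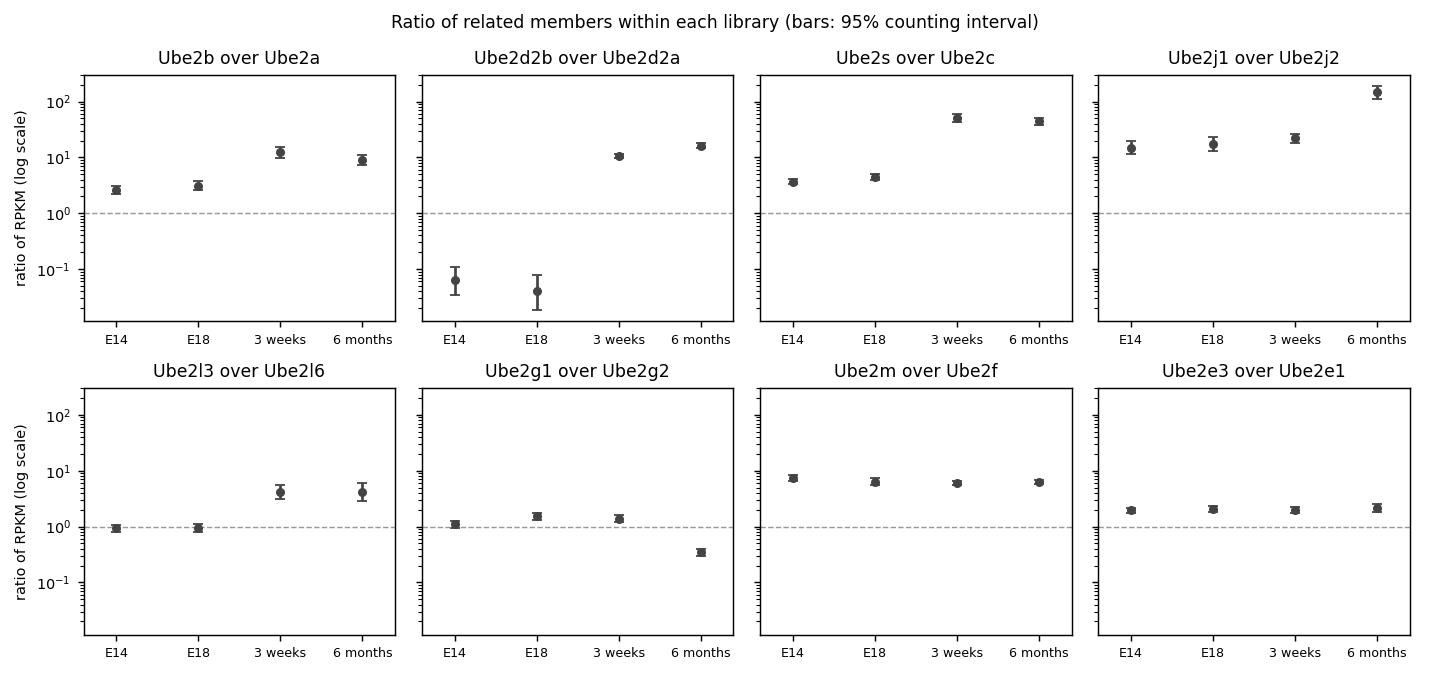
Ratio of RPKM between related members within each testis library, on a log scale, with 95% counting intervals as bars and a dashed line at 1. The ratios of Ube2b over Ube2a, Ube2d2b over Ube2d2a and Ube2s over Ube2c are higher in both postnatal libraries than in both fetal ones, while Ube2e3 over Ube2e1 stays between 1.95 and 2.13.

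The enzymes of endoplasmic reticulum quality control differed among themselves at 6 months. Ube2j1 over its relative Ube2j2 was 17.1 at E18 (interval 12.8 to 23.2) and 146 at 6 months (113 to 192). Ube2g1 and Ube2g2 exchanged places: Ube2g1 stood at 3.88, 4.41, 4.88 and 2.35 RPKM in order of age, and Ube2g2 at 3.55, 2.87, 3.51 and 6.84. Ube2g1 over Ube2g2 was 1.39 at 3 weeks (1.21 to 1.59) and 0.344 at 6 months (0.302 to 0.391). Of 7 ligases of this compartment, 1 was higher at 3 weeks against E18 and 1 at 6 months against 3 weeks, beside 32.0% and 9.73% of all entries. It was Rnf139 in both cases, at 4.17 RPKM at E18, 20.2 at 3 weeks, then 58.1 at 6 months.

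Members that carry relatives of ubiquitin went in different directions. The NEDD8 carriers Ube2m (11.3, 9.76, 25.7 and 26.6 RPKM) and Ube2f (1.52, 1.53, 4.34 and 4.29) were both higher after birth, and the level of Ube2m over Ube2f lay between 5.93 and 7.42 in the 4 libraries. NEDD8 activates the cullin ligases, and of 12 genes of the cullin core 5 were higher at 3 weeks and 1 lower, beside 32.0% and 10.5% of all entries. Cul3 had the largest of these differences, at 6.01 RPKM at E18 and 40.9 at 3 weeks, and Cul7 was the lower one (8.37 and 1.495). Ube2l6, the ISG15 carrier, stood at 2.95, 3.25, 0.767 and 0.462 RPKM, low in both postnatal libraries. Its relative Ube2l3 stood at 2.74, 3.08, 3.19 and 1.93 RPKM, and 27.2% of its 50-base stretches lie in overlapping genes. Ube2z, which serves the modifier FAT10 and ubiquitin, stood at 10.02, 12.5, 9.41 and 5.65 RPKM.

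Among the other carriers Ube2q2 was past the limit in 1 comparison, from E18 to 3 weeks. The Ube2e genes had like profiles, with Ube2e3 at 5.08, 5.78, 5.42 and 2.75 RPKM, Ube2e1 at 2.61, 2.79, 2.78 and 1.29 and Ube2e2 at 1.41, 1.47, 1.06 and 0.682. All 3 were lowest in the adult library, though over ribosomal protein genes the log2 differences from E18 to 6 months lay between 0.10 and 0.20. Over protein-coding genes Ube2e1 and Ube2e3 were lower past the limit from E18 to 6 months. Ube2q1 (6.28, 7.06, 12.9 and 8.90 RPKM) and Ube2q2 (1.46, 1.72, 5.06 and 3.78) were highest at 3 weeks, and 16.4% of the 50-base stretches of Ube2q2 also lie in other annotated loci. Ube2o had 2.32, 1.71, 3.82 and 3.14 RPKM and Ube2w 1.58, 1.94, 3.44 and 2.97, with both postnatal values of each above its fetal values but within the limit against E18. Ube2k had 1.73, 1.59, 2.44 and 2.92 RPKM. Ube2r2, a relative of Cdc34, had 8.17, 8.84, 5.65 and 4.91 RPKM, and Ube2h had 4.22, 5.17, 3.75 and 2.97. Both had lower values after birth within the limit, but not over ribosomal protein genes (0.41 for each from E18 to 6 months). Over protein-coding genes both were lower past the limit from E18 to 6 months. Of the stretches of Ube2h, 44.2% occur at another annotated locus.

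Genes around the family were taken from lists of the pathway, whose counts from E18 to 3 weeks stand beside 32.0% higher and 10.5% lower over all entries and 24.1% and 13.2% over protein-coding symbols. Cdc34, a carrier for cullin ligases that lacks the family name, stood at 9.48 RPKM at E14, 5.61 at E18, 12.7 at 3 weeks, then 58.5 at 6 months, the adult value being the highest. Its pseudogene entry ran in parallel at 3.88, 1.85, 4.85 and 25.1 RPKM, so reads may have been shared. The giant conjugating enzyme Birc6 had 5.12, 5.69, 5.83 and 2.43 RPKM. Of 9 measured activating enzyme genes 1 was higher at 3 weeks, Nae1 of the NEDD8 pathway (1.66 and 6.04 RPKM), and 1 lower, Uba1, the main activator of ubiquitin (10.5 and 4.52), which stood at 11.03 at 6 months. The ubiquitin gene Ubb (1.15 RPKM at E18, 11.7 at 3 weeks, then 5.30 at 6 months) was among 4 of 12 genes for ubiquitin and its relatives that were higher at 3 weeks, and 2 of the 12 were lower.

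Of 13 RING ligases that work with Ube2a, Ube2b, Ube2n or Ube2t, 1 was higher at 3 weeks, a smaller share than the 32.0% of all entries. It was Rad18, the partner of the Rad6 homologues in DNA damage tolerance, with 0.537, 0.650, 3.10 and 0.973 RPKM. Rnf8, a histone ligase, had 2.30, 2.42, 3.14 and 1.94 RPKM, and Rnf20, which ubiquitylates histone H2B with Ube2b or Ube2a, had 1.88, 1.75, 3.67 and 0.908. Rad18 and Rnf20 were lower at 6 months than at 3 weeks past the limit. Of 17 HECT and RBR ligases 4 were higher at 3 weeks, near the 24.1% of protein-coding symbols, Arih2 (2.09 and 10.2 RPKM) and Park2, parkin (0.381 and 3.29), among them. Nedd4 was the 1 that was lower (37.9 and 8.63 RPKM). Of 22 measured deubiquitinating enzymes on the list, 12 were higher at 3 weeks and 1 lower, beside 32.0% and 10.5% of all entries. The pathway lists were chosen with earlier results of these data known, so the share of a list does not stand for its class. Usp1, which acts on Fanconi anaemia proteins, had 8.46 RPKM at E18 and 85.7 at 3 weeks, Usp2 had 1.04 and 14.1, and Usp22 was the lower one (9.68 and 3.73). At 6 months Otub2 (0.881 RPKM at 3 weeks and 23.8) and Usp44 (3.57 and 28.4) had the largest differences on this list.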

How the data were processed

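The authors deposited 1 table of RPKM per library, made with TopHat2 on mm10 according to the labels and per the submitters' processing notes. Which program counted the reads, on which annotation, and how strand and multiply mapped reads were handled is not given in the sources used here. Per the labels' protocols, ribosomal RNA was depleted, polyadenylated RNA was isolated and a directional kit was used.

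Reads behind each RPKM were recovered from the value steps of 11431 single-exon genes, and whole reads with 1 shared model length were found for all 39 members at a relative tolerance of 1e-09. The smallest such length was taken, so true counts may be a multiple and intervals may be too wide. This length equalled that of the GENCODE annotation for 13 of the 39 members. For Ube2s it was 999 bases against 5141, so levels set between different genes depend on the models. Intervals (95%, exact Poisson for levels and exact Clopper-Pearson for ratios) cover counting error only. Calls used a pseudocount of 1 RPKM, a minimum of 1 RPKM in at least 1 library and a limit of 2-fold. The calculation was checked on simulated data with counting error only, which holds no variation between animals, in composition or in scaling. Positions and transcripts came from GENCODE vM21 on GRCm38 (mm10) by symbol. Motifs were searched on both strands. Members may be named, and of each pathway list up to 2 genes per direction and comparison, with Uba1, Rad18, Rnf8, Rnf20, Ubb, Cdc34 and Birc6 throughout. The members and lists were chosen with earlier results of these data known. A member and some list genes, which stay in the counts, are not reported here by name. Markers named in the text came from the marker lists. Python 3.11.15 with numpy 2.4.6, pandas 2.3.3, scipy 1.17.1 and matplotlib 3.10.9 was used.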

Additional observations from a re-analysis of the deposited data

How the results depend on the processing

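With 1 library per stage no replicate could be left out, and no paired analysis was possible because no stage has a second library. Other settings tried were no filter, a minimum of 5 RPKM, a pseudocount of 0.1, a limit of 4-fold and 3 rescalings. Shares over all entries are given below for the rescalings alone, so counts under the other settings have no background beside them. Chosen after seeing the data were leaving E14 out of the filter and leaving out the pseudogene entries and Ube2cbp. With the pseudocount of 0.1, 1 member was higher from E14 to E18, 3 were lower from 3 weeks to 6 months and 8 were lower from E18 to 6 months. With a minimum of 5 RPKM, which leaves 20 members, 0 were lower from E14 to E18, 1 was lower from E18 to 3 weeks, 1 was higher from 3 weeks to 6 months and 1 was lower from E18 to 6 months. At 4-fold, 0 were lower from E14 to E18, 3 were higher and 0 lower from E18 to 3 weeks, 1 was higher from 3 weeks to 6 months, and 6 were higher and 0 lower from E18 to 6 months. The median of ratios gave 6 higher from E18 to 3 weeks, 6 higher from 3 weeks to 6 months and 1 lower from E18 to 6 months. The same shares over all entries were 25.7%, 17.7% and 12.1%. Rescaling over protein-coding genes gave 6 higher from E18 to 3 weeks and 8 lower from E18 to 6 months, beside 26.8% and 24.5% of all entries. Rescaling over ribosomal protein genes gave 20 higher and 0 lower from E18 to 3 weeks and 21 higher and 0 lower from E18 to 6 months, where Ube2z changed sign (0.15). Over all entries the shares were 49.1% higher and 2.93% lower, then 48.9% and 4.18%. Without E14 in the filter 0 members were lower from E14 to E18. The causes were not tested beyond what each setting does by construction. The rescalings moved the median of all entries by -0.20, 0.57 and -0.21 from E18 to 3 weeks and by 0.38, 0.12 and -0.10 from 3 weeks to 6 months, in the order median of ratios, ribosomal protein genes and protein-coding genes. Ube2d2b, Ube2t and Ube2u were higher from E18 to 3 weeks under all of these settings. Their log2 differences as deposited (6.09, 2.75 and 4.44) lay past even the 4-fold limit, and they were measured through the postnatal libraries. These settings could thus hardly change their calls and lend them no support. Depth limits Ube2d4 (1 to 10 reads), the postnatal values of Ube2ql1 and the values of 10 and 19 reads of Ube2dnl1 and Ube2dnl2 at 3 weeks.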

Other observations

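Genes of the ubiquitin relatives that the report does not describe also differed among libraries. Atg12, the conjugated protein of autophagy, stood at 5.30 RPKM at E14, 5.59 at E18, 15.9 at 3 weeks, then 9.31 at 6 months, and Sumo3 at 11.2, 15.6, 7.25 and 5.44. Rps27a, which encodes ubiquitin fused to a ribosomal protein, was lowest at 6 months, at 2.15, 2.28, 2.33 and 0.622 RPKM. Tsg101, an inactive relative of the conjugating enzymes that sorts ubiquitylated cargo, was highest at 3 weeks, at 3.28, 2.87, 7.40 and 2.63 RPKM. Fzr1, an activator of the anaphase-promoting complex, was highest at 6 months (4.15, 3.32, 4.52 and 10.05 RPKM), whereas its subunit Cdc16 was lowest there (10.5, 8.88, 5.70 and 2.86). Usp26, an X-linked deubiquitinating enzyme, was highest at 3 weeks, at 0.0311, 0.551, 6.28 and 1.43 RPKM, and the ligase Wwp2 was high at E14 and 6 months, at 4.73, 1.65, 1.42 and 8.67.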
